A study of Mus musculus with 2 samples.

Results

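Among the CD8+ T cells of B16 and B16-IL33 melanomas, 212 cells carried transcripts of *Cx3cr1*, *S1pr5* or *Klrg1* but none of *Havcr2* or of certain Ly49 receptor genes. *Cx3cr1*, *S1pr5* and *Klrg1* mark terminal effector cells. The 212 cells, chosen by their measured UMI counts, are described here. A cell was counted as a CD8+ T cell if its unique molecular identifiers (UMIs, 1 per captured transcript) of *Cd8a* and *Cd8b1* exceeded those of *Cd4* and *Foxp3* and it had at least 1 UMI of *Cd3d*, *Cd3e* or *Cd3g*. Member cells had in addition at least 1 UMI of *Cx3cr1*, *S1pr5* or *Klrg1* and no UMI of the Ly49 receptor genes *Klra1*, *Klra6* and *Klra7* or of *Havcr2*, which encodes the inhibitory receptor TIM-3. They made up 17.2% (15.1 to 19.4) of 1236 CD8+ T cells, among 9078 cells that passed the quality filter. The other 1024 CD8+ T cells comprised 111 with a Ly49 UMI, 179 with a *Havcr2* but no Ly49 UMI, and 734 with none of these genes. Ranges in parentheses are 95% intervals, which cover counting error only.

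The cells came from tumors of C57BL/6 mice inoculated intradermally with B16 melanoma cells or with B16-IL33 cells, a line engineered to overexpress the secreted form of the cytokine IL-33, and were sorted as TCR-beta+ T cells on day 9. Cells of both kinds of tumor were labelled with hashtag antibodies and pooled, and the pool gave 1 library each of gene expression, hashtags and T cell receptors (TCRs). The pool is 1 sample without replicates, so no test across animals was possible and no p-value is given. The tag names do not say how many mice stand behind a tumor, and how cells of single mice differ cannot be told apart from how single cells differ.

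CX3CR1 is the receptor for fractalkine, S1PR5 is a sphingosine-1-phosphate receptor that draws lymphocytes towards blood, and KLRG1 is an inhibitory lectin-like receptor. Effector CD8+ T cells that carry them are known as short-lived, cytotoxic and mostly circulating cells, whose gene program depends on the transcription factors T-bet and ZEB2. They are usually set apart from TCF1+ stem-like and memory cells on one side and from TIM-3+ exhausted cells on the other.

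The 3 genes of the rule did not mark the same cells. *Klrg1* alone was found in 104 member cells (49.1%, 42.1 to 56.0), *Cx3cr1* alone in 53, *S1pr5* alone in 11, *Cx3cr1* with *Klrg1* in 23, *S1pr5* with *Klrg1* in 7, *Cx3cr1* with *S1pr5* in 4 and all of them in 10. Cells with neither *Cx3cr1* nor *S1pr5* were therefore nearly as many as the 108 with either, and the name of terminal effectors with these receptors applied by transcript to the latter. Levels over the 212 cells were 160 counts per 1000000 UMIs (CPM) for *Cx3cr1*, 51.1 CPM for *S1pr5* and 282 CPM for *Klrg1*, and the 734 cells with none of the genes were at 0 by the rule. The rule rests on few UMIs: 113 member cells had exactly 1 UMI of the 3 genes, 54 had 2, and the highest had 11. Had every cell been sequenced to 1000 UMIs, 94.0 of 203 deep enough member cells (46.3%) would be expected to keep a UMI of these genes.

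Each receptor was detected more often in cells that had another of them than in cells that lacked it. Among the 946 CD8+ T cells without Ly49 or *Havcr2* UMIs, *Klrg1* was detected in 33 of 90 cells with *Cx3cr1* (36.7%, 26.8 to 47.5) and in 111 of 856 without it (13.0%, 10.8 to 15.4). *Cx3cr1* was detected in 14 of 32 cells with *S1pr5* (43.8%, 26.4 to 62.3) and in 76 of 914 without it (8.32%, 6.61 to 10.3). *Klrg1* was detected in 17 of these 32 cells (53.1%, 34.7 to 70.9) and in 127 of the 914 (13.9%, 11.7 to 16.3). Cells with *S1pr5* were not deeper than cells without it, with medians of 2733.5 and 3082 UMIs. *Klrg1* was no mark of CD8+ cells alone, as its level in 4518 CD4+ T cells of the same pool was 223 CPM, against 12.2 CPM for *Cx3cr1* and 1.20 CPM for *S1pr5*.

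*S1pr5* was lower in cells with *Havcr2* than in cells without it, on few UMIs, whereas the levels of *Cx3cr1* and *Klrg1* did not differ beyond counting error. Among CD8+ T cells without Ly49, *S1pr5* had 1 UMI in the 179 cells with *Havcr2*, or 0.965 CPM (0.0244 to 5.38), and 41 UMIs in the 946 cells without it, or 11.7 CPM (8.43 to 15.9), a ratio of 12.2 (2.07 to 492). The cells with *S1pr5* were 1 of 179 (0.559%) and 32 of 946 (3.38%), and after thinning to 1000 UMIs the shares of 0.0535% (up to 2.18) and 1.44% (0.770 to 2.45) overlapped within counting error. *Cx3cr1* was at 36.7 CPM in both (ratio 1.00, 0.692 to 1.48). *Klrg1* was at 71.4 CPM with *Havcr2* and at 64.8 CPM without it (ratio 0.907, 0.695 to 1.20). Cells with *Havcr2* had a median depth of 5672 UMIs, and the part of depth in these levels was not tested. The rule left out 27 cells with *Cx3cr1*, 46 with *Klrg1* and 1 with *S1pr5* for their *Havcr2* UMIs.

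Member cells had a median of 3147 UMIs (664 to 9872) and 1255 detected genes, and the other CD8+ T cells had 3626 UMIs and 1273 genes, so levels were compared as CPM pooled over the cells of a group. Signs of other cells were present in both groups. A *Cd4* or *Foxp3* UMI was found in 30 member cells (14.2%) and in 103 others (10.1%), and at least 2 productive beta chains in 21 of 167 member cells with a beta chain (12.6%, 7.96 to 18.6) and in 64 of 726 others (8.82%, 6.86 to 11.1). A UMI of the 8 NK cell genes was found in 58 member cells (27.4%) and in 322 others (31.4%), and the genes summed to 226 and 233 CPM. Among the others the sum was 522 CPM with Ly49, 134 CPM with *Havcr2* and 218 CPM with none of the genes. In member cells *Klra4*, *Klra8* and *Klri2* were at 0 and *Ncr1* had 1 UMI. *Klra4* and *Klra8* are themselves Ly49 genes, and the rule left out cells with UMIs of other Ly49 genes, so their 0 says little about NK cells. In member cells the gamma-delta T cell genes *Tcrg-C1*, *Tcrg-C4* and *Sox13* and the NKT cell factor *Zbtb16* were at 0, as were 5 of 6 melanoma genes. A UMI of the whole lists was nevertheless found in some cells. For the 5 gamma-delta T cell genes these were 3 member cells (1.42%) and 53 others (5.18%). For the 3 NKT cell genes they were 16 member cells (7.55%) and 62 others (6.05%), with sums of 22.4 and 19.0 CPM. For the melanoma genes they were 7 member cells (3.30%) and 51 others (4.98%). The gamma-delta T cell genes summed to 6.23 CPM in member cells, 8.69 CPM in cells with *Havcr2* and 10.0 CPM in cells with none of the genes. Their sum was 95.9 CPM in cells with Ly49, which the rule leaves out of the member cells but which are among the others. A UMI of the 8 dendritic cell genes was found in 39 member cells (18.4%) and 197 others (19.2%), and the genes summed to 294 and 120 CPM. Of these *Flt3*, *Xcr1*, *Clec9a*, *Cd209a* and *Siglech* were at 0 in member cells, while *Cd74* and *H2-Aa* were at least 2-fold higher than in the others. A UMI of the 5 B cell genes was found in 52 member cells (24.5%) and 321 others (31.3%), and the genes summed to 148 and 128 CPM, with *Ms4a1* at 0 in member cells. A UMI of the 12 macrophage and monocyte genes was found in 110 member cells (51.9%), 428 others (41.8%) and 2585 CD4+ T cells (57.2%). These 12 genes summed to 391 CPM in member cells, 334 CPM in the others and 661 CPM in CD4+ T cells.

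Member cells had higher levels of the abundant effector genes *Gzma* and *Ccl5* than the other CD8+ T cells, and of the less abundant *Zeb2*, *Gzmm*, *Itgax*, *Fasl* and *Il18rap*. They had lower levels of *Gzmc* to *Gzmf* and of naive and memory genes such as *Tcf7*. Of 4783 genes with at least 100 UMIs in the compared cells, TCR genes and the genes of the rule left out, 21 (0.439%) had a CPM at least 2-fold higher in member cells and 35 (0.732%) had a CPM at least 2-fold lower. The median ratio of all these genes was 1.08. The 10 highest ratios were those of *Gzma*, *Areg*, *Zeb2*, *Gzmm*, *Cxcl2*, *Itgax*, *Ccl5*, *Cd74*, *Lamc1* and *Snx10*. The 10 lowest were those of *Hba-a1*, *Hba-a2*, *Hbb-bs*, *Hbb-bt*, *Gzme*, *Gzmd*, *Gzmf*, *Ccl7*, *Rflnb* and *Slc16a6*.

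**Figure D1:**
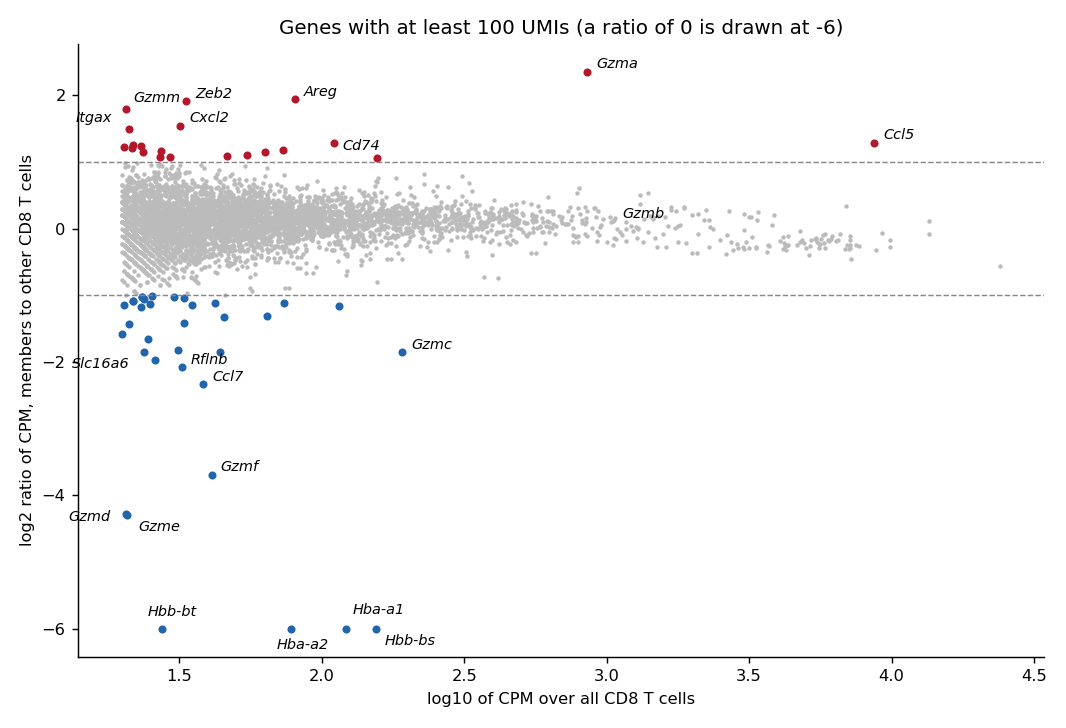
Each point is 1 of 4783 genes, with the log10 of its CPM over all CD8+ T cells on the horizontal axis and the log2 ratio of its CPM in member cells to that in other CD8+ T cells on the vertical axis. Dashed lines mark a 2-fold ratio, the 21 genes above are red and the 35 below are blue, and *Gzma* and *Ccl5* stand apart as abundant genes on the high side.

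*Gzma* encodes granzyme A, a serine protease of cytotoxic granules (chromosome 13, 113093825 to 113100981, in GENCODE vM21 on mm10). It was at 2625 (2514 to 2739) CPM in member cells, 509 (482 to 536) CPM in cells with none of the genes, 565 (519.8 to 612) CPM in cells with *Havcr2*, 445 (388 to 508) CPM in cells with Ly49 and 43.3 CPM in CD4+ T cells. Its level was 5.10 (4.80 to 5.41) times that of all other CD8+ T cells, and member cells lay above each of the other CD8+ groups. The transcript was present in 110 of 212 member cells, and no cell held more than 4.46% of its 2106 UMIs. With each cell thinned to 1000 UMIs, 43.5% (36.6 to 50.6) of member cells had a *Gzma* UMI, against 14.9% (12.7 to 17.2) of other CD8+ T cells and 2.28% of CD4+ T cells, whose median depth was 2724 UMIs. Before thinning the shares were 51.9%, 22.9% and 4.63%.

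*Zeb2* encodes a transcriptional repressor on which the terminal effector program depends (chromosome 2, 44983632 to 45117395). *Zeb2* is a marker of these cells that the rule did not use. It was at 87.2 (68.0 to 110.2) CPM in member cells, 24.2 (18.7 to 30.8) CPM in cells with none of the genes, 27.0 (18.0 to 39.1) CPM with *Havcr2*, 10.2 (3.31 to 23.8) CPM with Ly49 and 21.4 CPM in CD4+ T cells. The ratio to all other CD8+ T cells was 3.75 (2.72 to 5.15), and the interval of the member cells lay above those of all other groups. Its 70 UMIs came from 53 member cells, with at most 5 in 1 cell. After thinning, 9.66% (5.97 to 14.6) of member cells and 2.49% (1.62 to 3.67) of other CD8+ T cells had a UMI, near the 1.80% of CD4+ T cells in the latter, and the unthinned shares were 25.0%, 8.30% and 5.09%. *Zeb2* is also expressed by macrophages. In the 94 member cells and 506 others without a UMI of the 12 macrophage genes or of *Ncr1*, *Fcer1g* and *Tyrobp*, *Zeb2* reached 81.0 CPM (52.9 to 119) in the former and 19.0 CPM (13.4 to 26.2) in the latter, with a ratio of 4.27 (2.48 to 7.24). Without the upper limit of 2500 detected genes the ratio dropped to 1.88 (1.45 to 2.41). The 244 other cells that then entered had 47.7 CPM of *Zeb2* and 1118 CPM of macrophage genes, against 24.5 CPM and 480 CPM in the 30 member cells that entered.

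*Ccl5*, a chemokine for T cells and monocytes, was the most abundant of the genes that set member cells apart. It was at 17291 (17005 to 17581) CPM in member cells, 7710.4 (7606 to 7816) CPM in cells with none of the genes, 6360.0 (6207 to 6515) CPM with *Havcr2* and 5123 (4925 to 5328) CPM with Ly49, a ratio of 2.44 (2.39 to 2.49) to all other CD8+ T cells. Nearly all member cells had it (197 of 212), and after thinning the share was 85.3% in member cells, 85.7% with Ly49, 75.1% with *Havcr2*, 68.2% with none of the genes and 37.0% in CD4+ T cells. Member cells thus exceeded cells with Ly49 in the level of *Ccl5* but not in the share of cells with it. The unthinned shares were 92.9%, 98.2%, 91.1%, 79.2% and 54.3%. *Gzmm* (granzyme M) was at 51.1 (36.7 to 69.3) CPM against 14.7 (11.3 to 18.9) CPM, which gave a ratio of 3.47 (2.28 to 5.24), and cells with *Havcr2* had 3.86 (1.05 to 9.88) CPM. *Itgax* (CD11c, an integrin of myeloid cells that effector T cells also carry) was at 46.1 (32.5 to 63.6) CPM against 16.4 (12.7 to 20.7) CPM, which gave a ratio of 2.82 (1.84 to 4.26), and had a UMI in 30 member cells. *Fasl*, the death ligand, was at 83.5 (64.7 to 106) CPM against 39.4 (33.6 to 45.9) CPM, which gave a ratio of 2.12 (1.57 to 2.83), in 55 member cells. *Il18rap*, a chain of the IL-18 receptor, was at 117 (94.7 to 143) CPM against 52.7 (46.0 to 60.1) CPM, which gave a ratio of 2.22 (1.73 to 2.84), in 64 member cells. *Lamc1* and *Snx10* had ratios of 2.38 (1.54 to 3.62) and 2.36 (1.55 to 3.54). *Gzmm* was the most concentrated of *Ccl5*, *Gzmm*, *Itgax*, *Fasl* and *Il18rap*, with 9.76% of its UMIs in 1 member cell. Among cells without macrophage or NK cell UMIs the ratios were 8.14 (7.35 to 9.01) for *Gzma*, 3.66 (3.55 to 3.78) for *Ccl5*, 3.25 (1.62 to 6.30) for *Itgax* and 2.19 (1.07 to 4.23) for *Gzmm*. *Cd74*, a class II gene that dendritic cells express with *Itgax*, was at 218 (187 to 253) CPM in member cells and 89.5 (80.7 to 99.0) CPM in the others, a ratio of 2.44 (2.03 to 2.92). Few cells had it, 35 of 212 member cells and 158 of 1024 others. The richest member cells held 37 and 33 of the 175 *Cd74* UMIs in member cells. Without the richest cell on either side the ratio of *Cd74* was 2.15. Among cells without macrophage or NK cell UMIs it was at 231 (181 to 289.6) CPM, in 12 of the 94 member cells, and 29.8 (22.6 to 38.5) CPM, which gave a ratio of 7.75 (5.42 to 11.1). The part of dendritic cell transcripts in the *Itgax* and *Cd74* ratios was not tested.

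**Figure D2:**
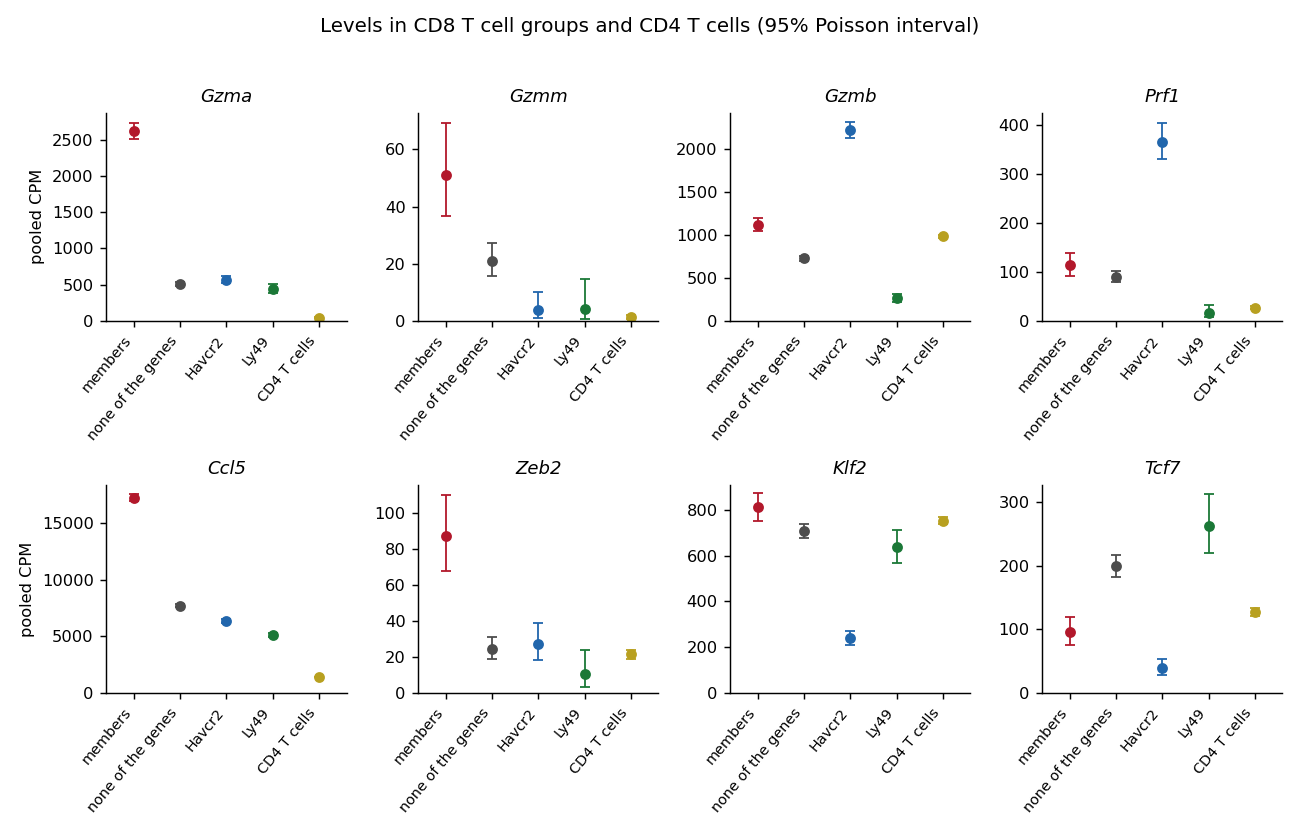
Pooled CPM of 8 genes (vertical axes, from 0) in member cells, in the 3 groups of other CD8+ T cells and in CD4+ T cells, with 95% Poisson intervals of counting error. Member cells were highest for *Gzma*, *Gzmm*, *Ccl5* and *Zeb2*, cells with *Havcr2* were highest for *Gzmb* and *Prf1*, and *Tcf7* in member cells lay between cells with *Havcr2* and cells with none of the genes.

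The granzymes did not move together. *Gzma* and *Gzmk*, neighbors on chromosome 13, and *Gzmm* on chromosome 10 were higher in member cells, whereas the granzymes of the chromosome 14 cluster were level with or below the other CD8+ T cells. *Gzmk* was at 278 (243 to 317) CPM against 164 (152 to 176) CPM, which gave a ratio of 1.70 (1.45 to 1.98). *Gzmb*, the granzyme most used as a mark of cytotoxicity, was at 1122 (1049.5 to 1197) CPM against 1041 (1011 to 1073) CPM, which gave a ratio of 1.08 (1.00 to 1.16), and that average hid 727 CPM in cells with none of the genes and 2225 CPM in cells with *Havcr2*. *Gzmc* was at 59.8 (44.1 to 79.3) CPM against 217 (203 to 231) CPM in all other CD8+ T cells, but much of the latter lay in cells with *Havcr2*, which the rule leaves out of the member cells. In cells with none of the genes *Gzmc* was at 100.1 (88.5 to 113) CPM, a ratio of 0.598 (0.430 to 0.815), and after thinning it was found in 2.72% of member cells and 2.83% of those cells. *Gzmd*, *Gzme* and *Gzmf* had 1, 1 and 3 UMIs in member cells, against 102, 103 and 203 in the others, spread there over 14, 15 and 28 cells, of which 7, 7 and 13 had none of the genes. Cells with *Havcr2* had 617 CPM of *Gzmc*, and the ratio of member cells to them was 0.0970 (0.0708 to 0.130). Perforin (*Prf1*), which forms the pore for granzymes, was at 113 (91.3 to 139) CPM in member cells, 90.1 CPM in cells with none of the genes and 366 CPM in cells with *Havcr2*. Of 13 cytotoxic genes with at least 30 UMIs, 3 were at least 2-fold higher (*Gzma*, *Gzmm* and *Fasl*), 4 at least 2-fold lower (*Gzmc* to *Gzmf*) and 6 in between, with a median ratio of 1.08. Over all 8046 genes with at least 30 UMIs, 1.75% were at least 2-fold higher and 2.81% at least 2-fold lower, with a median ratio of 1.07.

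Of 17 migration genes 0 were at least 2-fold higher, 1 was at least 2-fold lower and 16 were in between, with a median ratio of 1.29. *Klf2*, which drives expression of tissue exit receptors, was at 811 (750.2 to 876) CPM in member cells, 708 CPM in cells with none of the genes and 238 CPM with *Havcr2*, so member cells had 3.40 (2.94 to 3.96) times the level of the latter. *Itga4*, the integrin chain for endothelial VCAM-1, had a ratio of 1.55 (1.30 to 1.84) to all other CD8+ T cells, and *S1pr4* a ratio of 1.53 (1.20 to 1.92). *S1pr1*, the receptor for exit from lymphoid tissue, did not follow, at 0.919 (0.654 to 1.27). *Ccr7*, the lymph node homing receptor, was the 1 migration gene at least 2-fold lower, with 37.4 (25.2 to 53.4) CPM against 80.7 (72.3 to 89.7) CPM. Of 16 naive and memory genes, *Ccr7* and *Bcl2* were at least 2-fold lower, 14 were in between, and the median ratio was 0.676. *Tcf7*, which encodes TCF1, was at 96.0 (75.7 to 119.9) CPM in member cells, 199 (183 to 217) CPM in cells with none of the genes and 38.6 (27.6 to 52.6) CPM with *Havcr2*. *Il7r* had a ratio of 0.689 (0.539 to 0.871), *Lef1* of 0.698 (0.513 to 0.934) and *Id3* of 0.664 (0.477 to 0.904), and *Bcl2*, a survival factor, one of 0.446 (0.321 to 0.605). *Slamf6* at 0.919 (0.664 to 1.25) and *Eomes* at 0.908 (0.636 to 1.27) did not differ beyond counting error.

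Of 14 effector transcription factors *Zeb2* alone reached a 2-fold ratio, and *Tbx21*, which encodes T-bet, had 57.3 (42.0 to 76.5) CPM against 53.4 (46.6 to 60.8) CPM, which gave a ratio of 1.07 (0.764 to 1.48). *Id2* at 1.06 (0.971 to 1.16) and *Prdm1* at 0.833 (0.512 to 1.30) did not differ beyond counting error either. Residency genes showed no common direction, with 0 of 9 past a 2-fold ratio and a median of 1.02, and *Cxcr6* was at 0.889 (0.763 to 1.03). *Zfp683*, the gene of the residency factor Hobit, was at 0 in member cells. It had fewer than 30 UMIs over all CD8+ T cells, too few for a comparison. Of 14 exhaustion and costimulation genes *Tnfrsf4* (OX40) had a ratio of at least 2, at 2.09 (1.78 to 2.44). *Pdcd1*, which encodes PD-1, was at 103 (82.4 to 128) CPM against 145 (134 to 157) CPM in all other CD8+ T cells. The latter include the cells with *Havcr2*, at 252 CPM, which the rule leaves out of the member cells. After thinning, the shares with a *Pdcd1* UMI overlapped, at 8.58% (5.12 to 13.3) of member cells and 10.4% (8.24 to 12.9) of cells with none of the genes. *Lag3* was at 0.863 (0.706 to 1.05) and *Tox* at 0.761 (0.504 to 1.11). Of 10 cytokine and chemokine genes *Ccl5* and *Csf2* passed 2-fold, but 19 of the 26 *Csf2* UMIs in member cells came from 1 cell. *Ifng* had 304 (267 to 345) CPM against 296 (280.2 to 313) CPM, and the ratio of *Tnf* was 0.812 (0.438 to 1.41).

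Of 14 cytokine receptor genes *Il2ra* and *Il18rap* were at least 2-fold higher, and of 10 NK receptor genes *Fcgr2b* was at least 2-fold higher (15 UMIs in 12 member cells) and *Klrc2* at least 2-fold lower (4 UMIs). None of 13 S100, annexin and cytoskeleton genes reached 2-fold, with a median ratio of 1.24, in which *Ahnak* was at 1.54 (1.35 to 1.75) and *Emp3* at 1.48 (1.31 to 1.66). None of 14 cell cycle genes (median 1.15), 12 immediate early genes (1.05) and 9 metallothionein and hypoxia genes (0.880) passed 2-fold, and of 12 interferon genes (1.05) *Oasl2* was at least 2-fold lower.

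Several genes with extreme ratios rested on single cells. All 4 haemoglobin genes had 0 UMIs in member cells, and in the others at least 99.3% of the UMIs of each came from 1 cell, for example 773 of 775 for *Hbb-bs*. *Ccl7*, a monocyte chemokine, had 185 UMIs in other CD8+ T cells, 124 of them in 1 cell. *Cxcl2*, a neutrophil chemokine, had 57 UMIs in member cells, 44 of them in 1 cell, and without the cell richest in it on either side its ratio was 1.03. Without the richest cell of each gene on either side, *Zeb2* still had a ratio of 3.65. *Rflnb*, a regulator of the actin cytoskeleton, was lower without resting on single cells, with 7 UMIs in 6 member cells and 155 UMIs in 100 others, a ratio of 0.237 (0.0938 to 0.500), and so was *Slc16a6*, a monocarboxylate carrier family gene, at 0.254 (0.0915 to 0.569).

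*Areg*, which encodes the EGF receptor ligand amphiregulin and is known from regulatory T cells, was the second highest ratio, but it sat mostly in member cells that also had a *Cd4* or *Foxp3* UMI. It was at 212 (181 to 246) CPM in member cells and 55.3 (48.4 to 62.9) CPM in other CD8+ T cells, and at 609.6 CPM in CD4+ T cells. Of its 170 UMIs in member cells, 138 (81.2%) came from the 30 member cells with a *Cd4* or *Foxp3* UMI, 9 of which had *Areg*. In the 182 member cells without one, 12 cells had *Areg*, the level was 49.2 (33.6 to 69.4) CPM and the ratio to other such CD8+ T cells was 1.39 (0.915 to 2.07). The cells with a *Cd4* or *Foxp3* UMI had a median of 5588.5 UMIs, against 3004.5 UMIs in the rest, and their part in the other ratios can be given directly: without them *Gzma* had a ratio of 5.42 (5.08 to 5.78), *Zeb2* of 3.68 (2.59 to 5.20), *Ccl5* of 2.47 (2.42 to 2.52) and *Gzmm* of 3.06 (1.91 to 4.81), whereas *Il2ra* went to 1.70 (1.19 to 2.38) and *Tnfrsf4* to 1.85 (1.51 to 2.27).

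Levels of *Gzma*, *Ccl5* and *Zeb2* increased with the number of UMIs of the rule genes. In the 734 cells with 0 such UMIs, the 113 with 1 and the 99 with 2 or more, *Gzma* was at 509, 1847 (1718 to 1983) and 3439 (3258 to 3627) CPM, and *Zeb2* at 24.2, 51.2 (31.7 to 78.2) and 125 (92.5 to 165) CPM. *Ccl5* was at 7710.4, 15132 (14758 to 15514) and 19552 (19116 to 19994) CPM. *Gzmb* showed a step and no gradient, at 727, 1128 (1028 to 1236) and 1115 (1013 to 1224) CPM. Median depths of the 3 sets were 3042.5, 3008 and 3281 UMIs. The 32 member cells with *S1pr5* had the highest levels of *Gzma*, *Ccl5* and *Klf2* of all kinds of member cells, and a *Zeb2* level whose interval overlapped those of the others, with 4313 (3933 to 4719.5) CPM of *Gzma*, 29624 (28614 to 30661) CPM of *Ccl5*, 1313 (1107 to 1546) CPM of *Klf2* and 164 (97.3 to 259) CPM of *Zeb2*. They had 2 UMIs of *Pdcd1*, or 18.2 (2.21 to 65.9) CPM, against 131 (92.5 to 181) CPM in the 76 member cells with *Cx3cr1* but no *S1pr5* and 107 (77.8 to 144) CPM in the 104 with *Klrg1* only. *Gzmm* was at 128 (69.8 to 214) CPM in cells with *S1pr5*, 32.0 (14.6 to 60.7) CPM in those with *Cx3cr1* and no *S1pr5*, and 43.8 (25.9 to 69.2) CPM in those with *Klrg1* only.

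**Figure D3:**
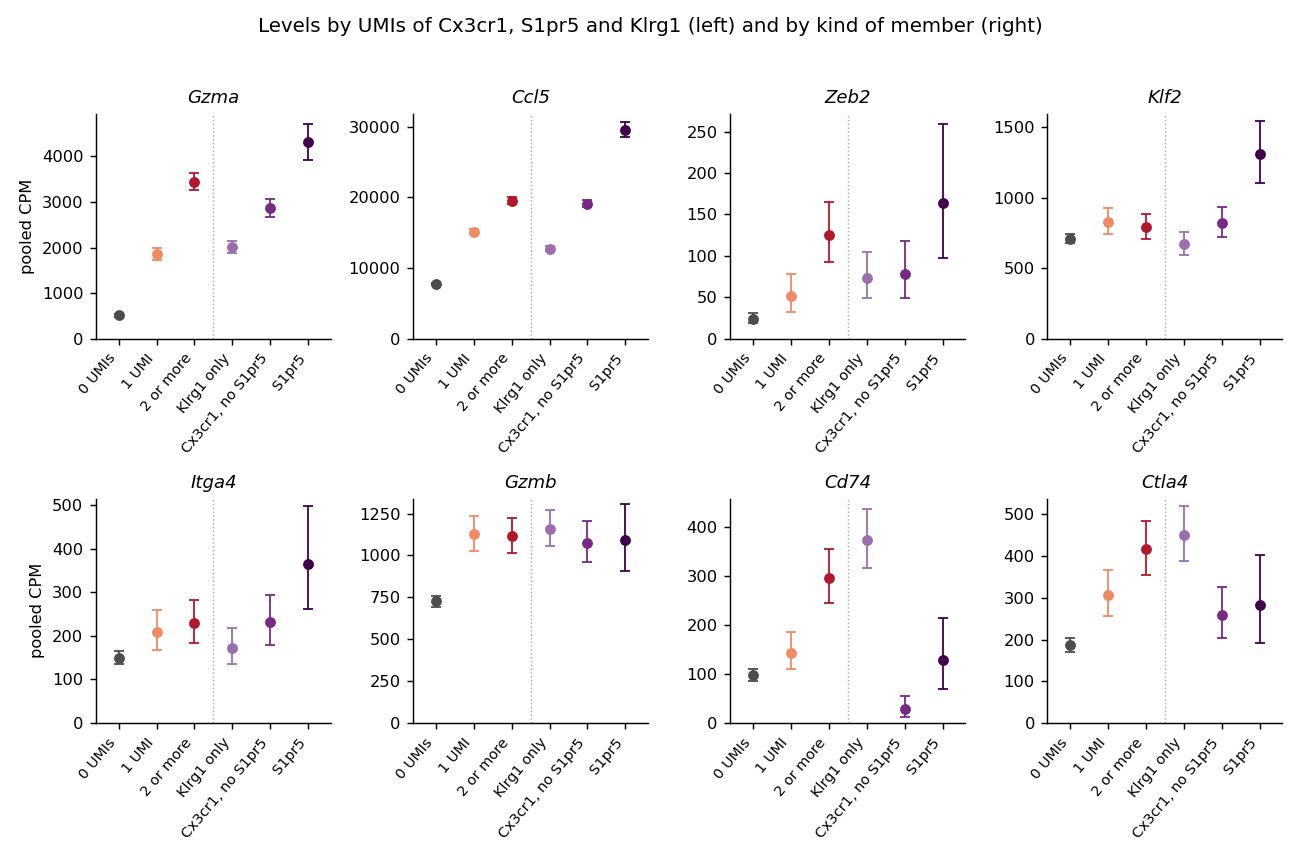
Pooled CPM of 8 genes (vertical axes, from 0) with 95% Poisson intervals, left of the dotted line in the 734 cells with 0 UMIs of *Cx3cr1*, *S1pr5* and *Klrg1* and in member cells with 1 UMI or 2 or more, and right of it in the 104 *Klrg1*-only member cells, the 76 with *Cx3cr1* but no *S1pr5* and the 32 with *S1pr5*. *Gzma* and *Ccl5* increased from left to right on both sides, *Zeb2* did so on the left, *Gzmb* was flat among member cells, and *Cd74* and *Ctla4* were highest in *Klrg1*-only cells.

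Member cells with *Cx3cr1* or *S1pr5* and those with *Klrg1* only differed in several genes. Of 1978 genes with at least 50 UMIs in these cells, 7 (0.354%) were at least 2-fold higher in the 108 cells with *Cx3cr1* or *S1pr5* and 43 (2.17%) at least 2-fold lower, and the median ratio was 0.983. The 5 highest ratios were those of *Cxcl2*, *Prf1*, *Agpat3*, *Slc1a5* and *Slamf7*, and the 5 lowest those of *Ifitm1*, *Cd74*, *Maf*, *Tyrobp* and *Ccl6*. *Prf1* was at 169 (130.4 to 215) CPM with *Cx3cr1* or *S1pr5* and 60.8 (39.4 to 89.8) CPM with *Klrg1* only, a ratio of 2.77 (1.73 to 4.59). *Slamf7*, a receptor of cytotoxic lymphocytes, had a ratio of 2.07 (1.31 to 3.32), *Il18rap* one of 2.04 (1.31 to 3.22), the NK receptor *Klre1* one of 2.05 (1.17 to 3.71), and the metabolic genes *Agpat3* and *Slc1a5* ratios of 2.45 (1.30 to 4.83) and 2.22 (1.24 to 4.13). *Cxcl2* rested on 1 cell, with all of its 44 UMIs on that side. *Gzma* at 1.62 (1.49 to 1.78), *Ccl5* at 1.73 (1.67 to 1.79) and *Klf2* at 1.44 (1.23 to 1.68) were higher with *Cx3cr1* or *S1pr5* by less than 2-fold, *Zeb2* at 1.40 (0.851 to 2.33) and *Gzmb* at 0.932 (0.815 to 1.06) did not differ beyond counting error, and *Gzmk* at 0.576 (0.432 to 0.764) was lower. Both kinds had *Gzma* above the 509 CPM of cells with none of the genes, at 3268 and 2012 CPM.

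Levels of *Maf*, *Il2ra*, *Icos*, *Ctla4*, *Tnfrsf9* and *Cd74* were higher in *Klrg1*-only cells. *Maf*, a transcription factor of helper and regulatory T cells, was at 153 (118 to 196) CPM in *Klrg1*-only cells and 38.3 (21.5 to 63.2) CPM in the others, found in 33 and 11 cells. *Il2ra* (CD25) was at 153 (118 to 196) against 43.4 (25.3 to 69.6) CPM, *Icos* at 331 (278 to 391) against 156 (119 to 200.2) CPM, *Ctla4* at 450.0 (387 to 519.7) against 266 (217 to 322) CPM and *Tnfrsf9* (4-1BB) at 467 (403 to 538) against 253 (206 to 308) CPM. *Itgae*, the CD103 integrin chain of resident T cells, had 14 UMIs against 1. *Cd74*, the invariant chain of class II molecules, was at 372 (316 to 436) against 56.2 (35.2 to 85.1) CPM, in 24 and 11 cells. *Ifitm1*, an interferon-induced gene, had 71 of its 77 UMIs in 6 *Klrg1*-only cells, and *Tyrobp* and *Ccl6*, genes of myeloid and NK cells, were found in 9 and 8 of them. The macrophage list summed to 538 CPM in *Klrg1*-only cells and 238 CPM in the others, and the CD4+ T cell genes *Cd4*, *Foxp3*, *Cd40lg*, *Il2ra* and *Ctla4* to 615 and 314 CPM, and the part of such transcripts in the differences was not tested. A *Cd4* or *Foxp3* UMI was found in 16 of 104 (15.4%) and 14 of 108 cells (13.0%). Without those cells the ratios of cells with *Cx3cr1* or *S1pr5* to *Klrg1*-only cells were 0.203 (0.0824 to 0.440) for *Maf*, 0.395 (0.261 to 0.586) for *Icos*, 0.509 (0.368 to 0.696) for *Ctla4*, 0.140 (0.0788 to 0.232) for *Cd74* and 2.97 (1.76 to 5.22) for *Prf1*, whereas *Areg* went from 0.323 (0.221 to 0.464) to 0.626 (0.279 to 1.34).

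**Figure D4:**
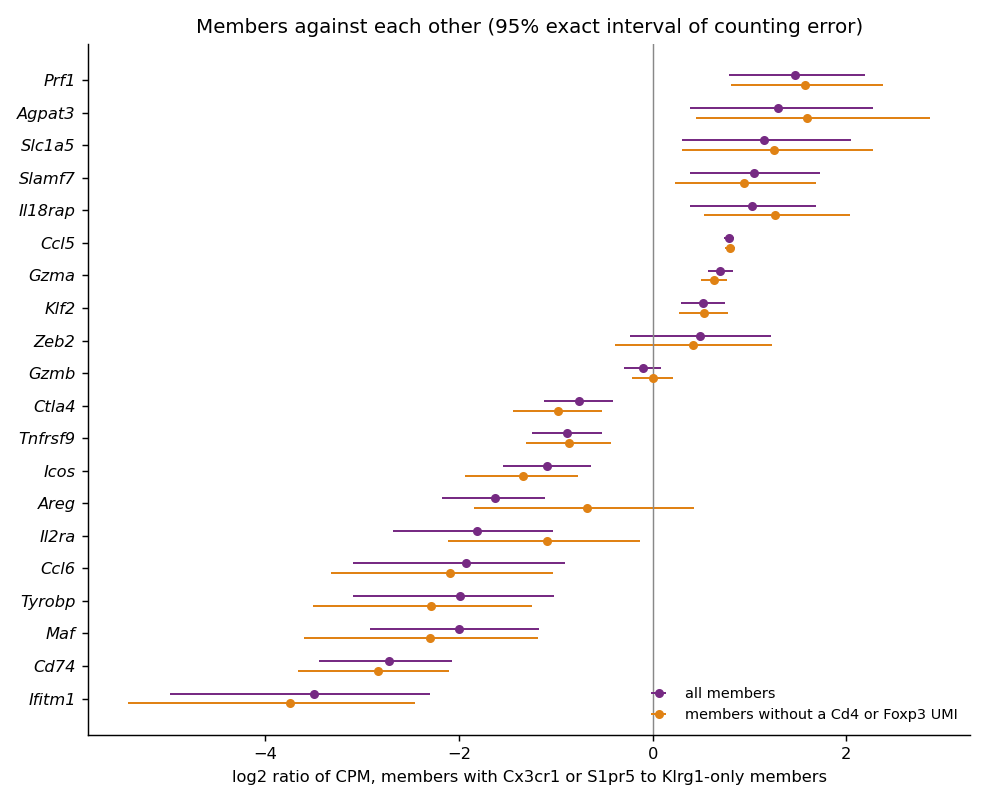
Log2 ratios of CPM (horizontal axis) of 20 genes between the 108 member cells with *Cx3cr1* or *S1pr5* and the 104 with *Klrg1* only, with 95% exact intervals of counting error, in all member cells (purple) and in those without a *Cd4* or *Foxp3* UMI (orange). *Prf1* lay highest and *Ifitm1* and *Cd74* lowest, and the interval of *Areg* crossed 0 only without the cells with a *Cd4* or *Foxp3* UMI.

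The TCR library, in which each clone is a clonotype called from the sequenced receptor chains, held 172 of the member cells, in 153 clones. Member cells belonged to expanded clones, of at least 2 CD8+ T cells, more often than the other CD8+ T cells did. The share was 52 of 172 cells (30.2%, 23.5 to 37.7) against 148 of 747 (19.8%, 17.0 to 22.9), a difference of 10.4 percentage points (3.01 to 18.4). It was 18.6% (15.3 to 22.2) in cells with none of the genes and 36.3% (28.5 to 44.7) in cells with *Havcr2*, from which member cells differed by −6.07 points (−16.8 to 4.71). Cells with Ly49 in expanded clones numbered 0 of 90, so a share of up to 4.02% lay within the interval. Between the kinds of member cells no difference was resolved, with 29.2% (20.1 to 39.8) with *Cx3cr1* or *S1pr5* and 31.3% (21.6 to 42.4) with *Klrg1* only, a difference of −2.11 points (−16.5 to 12.3). The difference to all other CD8+ T cells was smaller and its interval held 0 without the upper limit on detected genes (3.82 points, −2.99 to 11.2), with at least 2 UMIs of the rule genes (8.80, −1.12 to 20.1), with *Cx3cr1* and *S1pr5* as the only rule genes (8.25, −1.37 to 19.2) and with expanded clones of at least 3 cells (5.48 points, −0.0433 to 12.0). All these intervals treat cells as independent, although the 52 member cells came from 33 clones, so they may be too narrow.

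Expanded clones of member cells were shared with cells outside the rule. Member cells were found in 33 expanded clones, and 26 of these, with 37 of the 52 member cells (71.2%, 56.9 to 82.9), also held other CD8+ T cells. Cells with *Havcr2* were present in 12 of the clones and cells with none of the genes in 22, in 8 of them both, and cells with Ly49 or CD4+ T cells in 0. From the other side, 23 of 53 cells with *Havcr2* in expanded clones (43.4%, 29.8 to 57.7) and 29 of 95 cells with none of the genes (30.5%, 21.5 to 40.8) belonged to a clone with a member cell. Another 7 clones, with 15 cells, had member cells only, and 8 clones held both *Klrg1*-only cells and cells with *Cx3cr1* or *S1pr5*. Of the CD8+ T cells with a clonotype, 172 were member cells and 747 were others, so most possible clone mates lay outside the rule. Membership also rested on 1 UMI of the rule genes in 113 member cells. The part of group size and of missed UMIs in the sharing was not tested.

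The 4 clones with at least 3 member cells differed in their make-up. Clone 1 had 13 CD8+ T cells, of which 4 were member cells (3 with *Klrg1* only), 5 had *Havcr2* and 4 had none of the genes. Clone 3 had 8, of which 4 were member cells (3 with *Cx3cr1* or *S1pr5*), 3 had *Havcr2* and 1 had none of the genes. Clone 2 had 5, with 3 member cells, and clone 35 consisted of 3 member cells. The nucleotide sequences of their complementarity-determining region 3 (CDR3), which identify the cells of a clone, are printed below from the deposited contigs, 5′ to 3′. Lower case marks bases that match the end of the annotated V gene or the start of the J gene (GENCODE vM21) and capitals the bases between, which match neither. The beta chain of clone 2 is left out because no V gene end was matched. Clone 35 had no productive alpha chain, so its cells were grouped by the beta chain alone.
Clone 1 beta (TRBV15, TRBJ2-1): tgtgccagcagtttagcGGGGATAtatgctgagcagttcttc
Clone 1 alpha (TRAV6N-7, TRAJ21): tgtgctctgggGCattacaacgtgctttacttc
Clone 3 beta (TRBV26, TRBJ2-5): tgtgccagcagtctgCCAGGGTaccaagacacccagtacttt
Clone 3 alpha (TRAV8N-2, TRAJ7): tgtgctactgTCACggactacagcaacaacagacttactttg
Clone 2 alpha (TRAV7D-2, TRAJ7): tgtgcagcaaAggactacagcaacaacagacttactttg
Clone 35 beta (TRBV14, TRBJ2-1): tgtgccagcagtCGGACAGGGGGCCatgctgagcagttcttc
The chains printed use different V genes, and the alpha chains of clones 2 and 3 share the J gene TRAJ7 and its 28 bases. The beta chains have 7, 7 and 13 bases between V and J, against 2, 4 and 1 in the alpha chains. Over all member cells with exactly 1 productive beta chain, TRBV5 was the most used, in 18 of 146 cells (12.3%, 7.47 to 18.8) against 50 of 662 others (7.55%), a difference of 4.78 points (−0.590 to 11.5). The interval of the difference left out 0 for TRBV17 (7 member cells and 9 others, 3.44 points, 0.345 to 8.33) and for TRBV1 (2 and 37, −4.22 points, −6.58 to −0.369), with no adjustment for the number of V genes compared. These intervals count cells as independent although cells of a clone share a beta chain, so they may be too narrow.

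**Figure D5:**
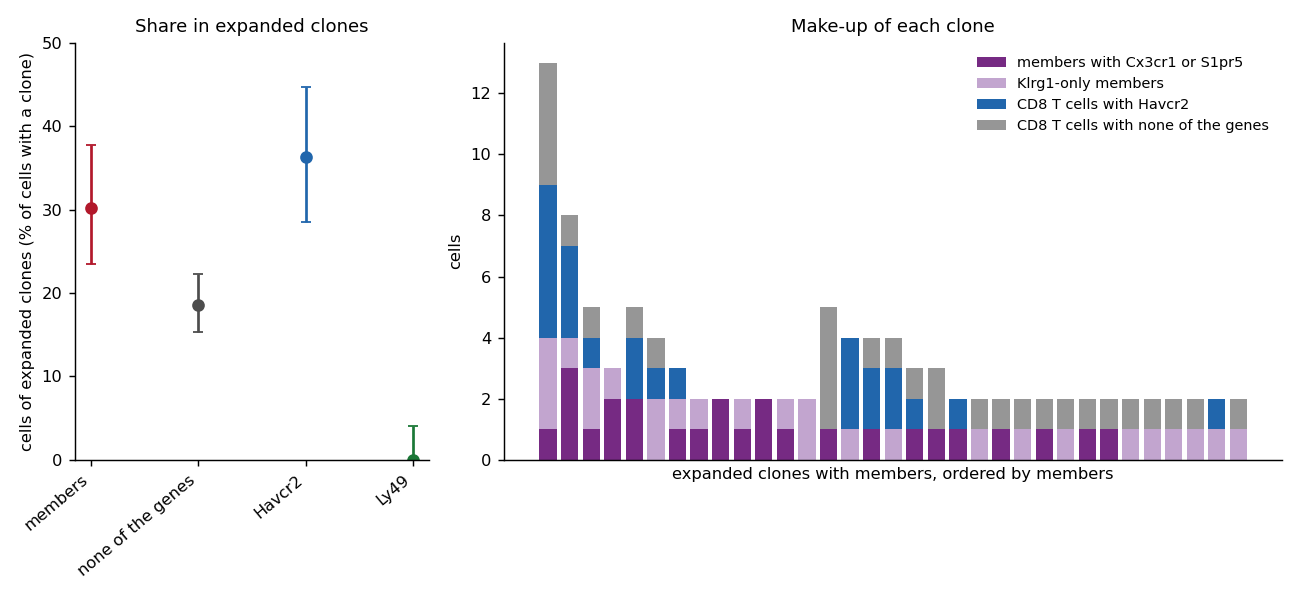
Left, percent of cells with a clonotype that belonged to expanded clones (vertical axis), with 95% Clopper-Pearson intervals, at 36.3% in cells with *Havcr2*, 30.2% in member cells and 0 in cells with Ly49. Right, number of cells (vertical axis) of each kind in the 33 expanded clones with member cells, of which 26 also held cells with *Havcr2* or with none of the genes.

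Whether B16-IL33 tumors held more of these cells than B16 tumors could not be resolved. Of 211 member cells in the hashtag library 19 carried a tag, 16 of them by 1 UMI, and 0 carried tags of both tumors. Member cells were 14 of 103 tagged CD8+ T cells of B16 tumors (13.6%, 7.63 to 21.8) and 5 of 19 of B16-IL33 tumors (26.3%, 9.15 to 51.2). The difference was 12.7 percentage points, with an interval from −6.29 to 38.3 that spans a lower as well as a much higher share. For cells with *Cx3cr1* or *S1pr5* the shares were 8 of 103 (7.77%) and 2 of 19 (10.5%), and for *Klrg1*-only cells 6 of 103 (5.83%) and 3 of 19 (15.8%). The tags numbered 1 alone gave −5.71 points (−27.6 to 39.4) and those numbered 2 gave 23.2 points (−2.13 to 55.5), so the direction differed between the tags of the same tumors. Expanded clones held 2 of 12 tagged member cells of B16 and 2 of 4 of B16-IL33 tumors.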

How the data were processed

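Tumor T cells of both origins were sequenced as 1 pool with 10x 5′ chemistry. The authors deposited raw counts of UMIs per gene and barcode (Cell Ranger 3.1.0 in the file header, 6.1.1 in the submitters' processing notes), aligned to a combined human and mm10 reference and not normalized, raw counts of UMIs per hashtag, and counts of UMIs per TCR contig with clonotypes. Mouse UMIs numbered 43420305 over 14035 barcodes. As in the study's methods, cells with 200 to 2500 detected genes and under 5% mitochondrial UMIs were kept (9078 cells, 26606999 UMIs). No doublet caller was run. Counts were summed per group and divided by the summed UMIs (CPM). Ratios have exact conditional binomial intervals, shares Clopper-Pearson, levels Poisson, and differences combine both shares' bounds (square-and-add), computed at 95% in SciPy 1.17.1 under Python 3.11.15. Shares with a UMI were also given as the expectation after thinning to 1000 UMIs, leaving out shallower cells. For genes, a count of 0 allows up to 3 counts. The ratio and thinning were tested on simulated data. The text names the markers, the 10 genes at each end of the ratio among those reaching 100 UMIs, the 5 at each end among member cells (50 UMIs), and genes of fixed lists (30 UMIs). List genes near a ratio of 1, and *Klre1*, *Il18rap* and *Itgae* in the comparison among member cells, were chosen after their values were seen. Identifiers of 30934 of 31053 genes were found in GENCODE vM21. The members and lists were chosen with earlier results of these data known. A cell was given a tumor if all its tag UMIs, at least 1, came from that tumor's tags. Some members of the gene lists are not reported here.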

Additional observations from a re-analysis of the deposited data

How the results depend on the processing

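No paired analysis was possible because the pool is 1 sample, no result comes from a test across samples, and what the numbers of the hashtags mark is not given. Of 79 values of the comparisons under alternatives, 56 stayed within their limits, 23 moved and 0 of those with an interval clear of no difference reversed. With at least 2 UMIs of the rule genes the share of member cells was 8.01%, with 57 genes at least 2-fold higher and 111 lower, and the shared portion of expanded member cells was 84.0%. With *Cx3cr1* and *S1pr5* only these were 8.74%, 33, 155 and 84.6%. Without an upper gene limit the lower genes numbered 102 and the *Zeb2* ratio was 1.88. Means of each cell's own CPM gave 38 higher and 64 lower genes, a minimum of 30 UMIs 141 and 226, and one of 200 UMIs 9 and 11. Lower genes numbered 20 against cells with none of the genes, 19 among cells with a beta chain and, chosen after seeing the data, 55 without the richest cell of a gene. Genes apart among member cells numbered 50, and 131 from 30 UMIs, 12 from 100 UMIs and, chosen after seeing the data, 33 without cells with a *Cd4* or *Foxp3* UMI. Expanded clones of at least 3 cells gave a shared portion of 88.5%. Leaving out cells with macrophage or NK cell UMIs, run for single genes after seeing the data, took the ratio of *Areg* below 1, to 0.572 (0.239 to 1.18, on 8 UMIs in 2 member cells), that of *Cxcl2* to 0 (0 to 1.57) and that of *Cd74* to 7.75. *Zeb2* ratios ran from 1.88 to 4.86 over 12 alternatives. Depth limits the rule itself, since most cells had few UMIs of its genes.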
